A study of Mus musculus with 14 samples.

Results

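The nucleus accumbens of older mice was compared with that of younger mice in 8 Drop-seq pools: 4 pools from mice of 78 to 82 days and 4 from mice of 37 to 45 days. These 8 pools are all the accumbens pools among the 14 samples of the series, and were chosen by the ages in their labels: replicates 3 and 4 of each treatment are the older pools and replicates 1 and 2 the younger ones. Every pool held cells of 2 male C57BL/6 mice with no genetic modification named in the labels. Mice had received saline (mock) or morphine by injection into the abdominal cavity, with the dose and the time to collection not given in the sources used here, and each age group held 2 mock and 2 morphine pools. The tissue was dissociated with papain. Mock pool 1 and morphine pool 1 came from mice of 42 and 45 days, mock pool 2 and morphine pool 2 from mice of 37 and 42 days, mock pool 3 and morphine pool 3 from mice of 78 and 82 days, and mock pool 4 and morphine pool 4 from mice of 78 days. Since each replicate number belongs to 1 age group only, age cannot be told apart from the set of libraries made under that number. All p-values measure the spread between pools and treat the 8 pools as independent. Pools of the same number held mice of the same ages, so if they also shared a library set these p-values are too small.

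Drop-seq captures single cells with barcoded beads in droplets and counts each RNA molecule by a unique molecular identifier (UMI). The nucleus accumbens is the ventral part of the striatum, and most of its neurons are medium spiny neurons, which carry either the D1 or the D2 dopamine receptor. Immediate early genes such as Fos, Jun and Egr1 encode transcription factors and signalling brakes whose mRNAs appear within minutes of a stimulus in neurons, glia and endothelial cells, without new protein synthesis. They are induced by neuronal activity and growth factors, and also during the warming, cutting and enzyme treatment used to release single cells from tissue.

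Of 36000 deposited barcodes, 33225 passed the filters, with 2813 to 5846 in a pool, and 6660833 to 24149207 UMIs were summed in a pool. Median UMIs per cell were 1983 ± 262 in younger and 2387 ± 410 in older pools (SD, n = 4 each; exact permutation p = 0.20). Pairs of pools shared 0 to 8 kept barcodes. The cells formed 28 clusters; 27 were assigned to 16 classes by their markers, so that "endothelial cells" below stands for endothelial-like cells, and so on. The remaining cluster of 1221 cells was left unnamed. A gene was called when its adjusted p in edgeR's quasi-likelihood test, with treatment as a covariate, was under 0.05, and "rose" and "fell" are used of called genes only. Apart from the genes of smallest p in each class and list, genes were chosen for naming after their values were seen. Both replicate 1 pools were counted on another gene annotation, so the comparison used the 17013 gene symbols present in all 8 files, and results are also given without these pools where that changes them.

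In endothelial cells, which line the blood vessels, immediate early genes were higher in the older pools: 10 of the 11 immediate early genes tested rose, and for 9 of them the 4 older pools all lay above the 4 younger pools. Of the 6697 genes tested in this class, 3.88% were called, 1.64% rose and 12% did not overlap between the age groups. The median log2 difference of the 11 genes was 1.73, against 0.019 over all genes tested. The class held 121 to 309 cells and 272722 to 610154 UMIs per pool.

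Levels are given as CPM, the UMIs of a gene scaled to the library size of the pool's class. Klf4, a transcription factor of endothelial cells that responds to shear stress, was measured at 278, 343, 376 and 481 CPM in the younger pools, given throughout in the order mock 1, mock 2, morphine 1 and morphine 2. In the older pools, in the order mock 3, mock 4, morphine 3 and morphine 4, Klf4 reached 1309, 1004, 1691 and 1156 CPM. Every older pool was above every younger one, and the log2 difference was 1.80 (SE 0.20, adjusted p = 0.000162). Cyr61, a secreted matrix protein and a target of the mechanosensitive YAP pathway, was at 227, 190, 222 and 132 CPM in the younger pools. It was at 761, 567, 1242 and 918 in the older pools, again with no overlap, and the log2 difference was 2.16 (SE 0.24, adjusted p = 0.000162).

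Egr1, a zinc finger transcription factor of the immediate early group, was at 234, 157, 245 and 166 CPM in the younger pools. The older pools had 775, 528, 1151 and 675, so that the lowest older pool was above the highest younger pool (log2 difference 1.96, SE 0.23, adjusted p = 0.00018). The members below were picked from the list of immediate early genes after their values were seen. Fosb, a partner of Jun in the AP-1 transcription factor, showed the largest log2 difference of the 11 genes, from 99.6, 25.2, 138 and 51.3 to 439, 311, 651 and 404 CPM (2.65, SE 0.33, adjusted p = 0.00018). Fos went from 704, 233, 764 and 340 to 2593, 1211, 3778 and 1614 CPM (log2 difference 2.18, adjusted p = 0.00285). Morphine pool 3 was the highest and mock pool 4 the lowest of the older pools for Klf4, Cyr61, Egr1, Fosb and Fos alike.

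Junb and Jun, the other AP-1 subunits on the list, rose by 1.83 and 1.73 on the log2 scale. Jun was at 565 to 718 CPM in the younger pools and at 1484 to 2788 in the older ones. Atf3, a stress-responsive transcription factor, rose by 1.97, and Ier2 by 1.52. Among the genes that damp signalling, Dusp1, a phosphatase acting on MAP kinases, rose by 1.56, and Btg2, which restrains the cell cycle, by 1.67. Nr4a1, a nuclear receptor, rose by 1.40, but its pools overlapped (93.1 to 285 against 213 to 980 CPM; adjusted p = 0.0468). Fosl2 was the member that did not pass the test (log2 difference 0.72, adjusted p = 0.184).

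**Figure D1:**
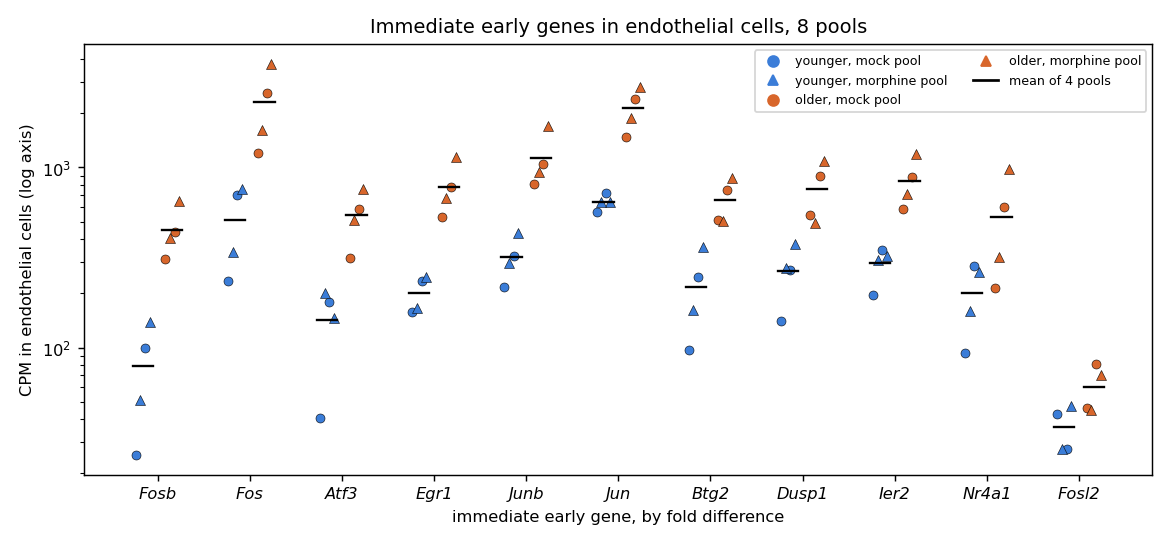
CPM (log axis) of the 11 immediate early genes tested in endothelial cells, 1 point per pool, with the mean of each age group as a bar. For Fosb the younger pools lie between 25.2 and 138 and the older pools between 311 and 651; Nr4a1 and Fosl2 are the 2 genes whose age groups overlap.

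The count of immediate early genes that rose in endothelial cells was 9 or 10 when any 1 pool was left out, 9 without both replicate 1 pools, and 9 with DESeq2. Klf4, Cyr61 and Egr1 passed the threshold under all 13 alternatives run for them. The total number of genes called in the class, 260, was far less steady: it was 64 to 152 without mock pool 1, mock pool 3 or any 1 morphine pool, 523 without mock pool 2, 576 without mock pool 4, and 40 without both replicate 1 pools. It was 220 in a limma voom fit with the replicate number as a block.

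Further genes that rose in endothelial cells were picked from the 110 after their values were seen. Klf2, the transcription factor related to Klf4 that marks endothelium under flow, was at 938 to 1394 CPM in the younger pools and at 1865 to 4533 in the older ones (log2 difference 1.52, adjusted p = 0.00229). Zfp36, whose protein destabilises cytokine mRNAs, rose by 2.05 (adjusted p = 0.00018). Socs3, an inhibitor of cytokine signalling, rose by 2.05, Icam1, an adhesion receptor for leukocytes, by 1.56, and Nfkbia, the inhibitor of NF-kappa B, by 0.97. Abcb1a, the drug efflux pump of the blood-brain barrier, was at 1045 to 1682 CPM in younger and 2107 to 2462 in older pools (log2 difference 0.70, adjusted p = 0.0492).

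Of the 110 genes that rose in endothelial cells, 48 had their highest level of all classes there. The same share over all genes tested was not counted, so the 48 cannot be set against it. At least 4-fold higher in another class were 6 of the 110, against 18.9% of the genes tested. Among those 6 was Myl9, a contractile protein gene of the mural cells that wrap vessels, at 76.9 times its endothelial level in mural cells. Its endothelial level was 8.55 to 37.8 CPM in younger and 26.8 to 122 in older pools (log2 difference 1.82). The markers that define the class were not called: Cldn5, a tight junction protein, differed by 0.16 (adjusted p = 0.801), Pecam1 by 0.31 (adjusted p = 0.441) and Flt1, a VEGF receptor, by 0.41 (adjusted p = 0.244). None of the 12 heat shock genes tested was called. Hspa1b, a gene nearly identical to Hspa1a so that reads between them are uncertain, came nearest with 0.89 (adjusted p = 0.0742). Of 14 glucocorticoid-responsive genes tested, Dusp1, Nfkbia and Fkbp5 rose and the other 11 were not called; this count was 1 to 5 when single pools were left out.

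The difference in immediate early genes between endothelial cells and medium spiny neurons was itself tested, in 1 fit over both classes with the pool as a block. This test was added after seeing the data. No other class was compared with endothelial cells in this way, so it does not set them apart from microglia. The age difference was larger in endothelial cells for 9 of the 15 immediate early genes, against 0.578% of the 11928 genes in that fit. A lower difference there was found for 0.822% of the genes. Of 12 heat shock genes in the fit, 1 had a larger difference in endothelial cells and 0 a lower one. The difference of the log2 differences was 2.46 for Atf3 (SE 0.36, adjusted p = 0.00199), 1.68 for Junb (SE 0.25, adjusted p = 0.00199) and 1.77 for Egr1 (SE 0.27, adjusted p = 0.00224). For Fosb it was 2.31 (adjusted p = 0.0107) and for Fos 1.56 (adjusted p = 0.0236). For Npas4, a gene induced by calcium entry in neurons, it was −1.56 (SE 1.13, adjusted p = 0.579).

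In the other classes fewer immediate early genes passed the test. In microglia, the immune cells of the brain, all 11 members tested were higher in the older pools, with a median log2 difference of 1.17 and 5 members without overlap (5.57% of all genes), but Fosb alone rose, a gene 4.43 times higher in perivascular macrophages (0.0607% of genes were called and 0.0202% rose). Fosb in microglia was at 55.5, 33.0, 28.0 and 42.8 CPM in younger and 207, 150, 201 and 284 in older pools (log2 difference 2.29, SE 0.34, adjusted p = 0.0326). The groups did not overlap, but the adjusted p was above 0.05 without mock pool 1, mock pool 3, morphine pool 1, morphine pool 2 or morphine pool 4 and without both replicate 1 pools, reaching 0.44, while the log2 difference stayed between 2.13 and 2.58 over the 12 alternatives.

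In oligodendrocyte precursors, the dividing glia that give rise to myelinating cells, all 8 members tested were higher and Fosb, Fos and Jun rose (1.66% of genes were called and 0.646% rose). One member was without overlap, against 7.59% of genes. Fosb was at 46.8, 40.8, 86.6 and 6.9 CPM in younger and 114, 108, 89.8 and 250 in older pools (log2 difference 1.98, SE 0.41, adjusted p = 0.0136). Morphine pool 2 was the lowest and morphine pool 4 the highest, and 89.8 in morphine pool 3 was just above 86.6 in morphine pool 1. The call was lost without mock pool 1, morphine pool 2 or morphine pool 4 and with DESeq2. In oligodendrocytes Fos rose by 1.64, from 19.7 to 28.4 up to 39.4 to 126 CPM, and was the single member of 9 that was called (2.28% of genes were called and 0.528% rose). Of the other members 3 were higher and 5 lower, and the median was −0.053.

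**Figure D2:**
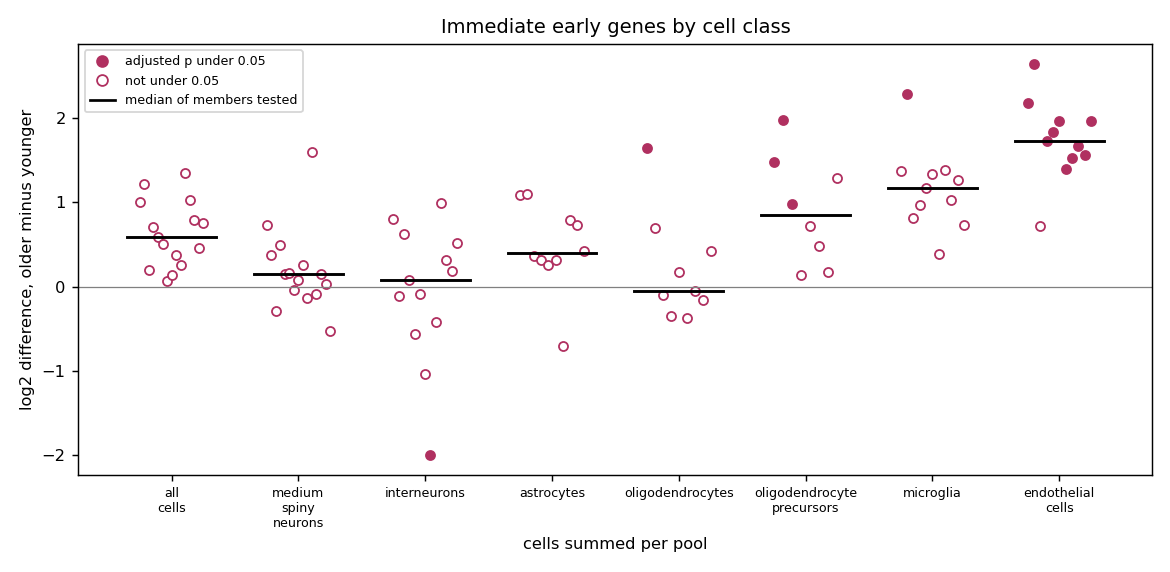
Log2 difference, older minus younger, of each immediate early gene tested in all cells and in 7 classes; filled points passed adjusted p under 0.05 and bars are medians. The median is 1.73 in endothelial cells, 1.17 in microglia, 0.85 in oligodendrocyte precursors, 0.15 in medium spiny neurons and −0.053 in oligodendrocytes.

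In medium spiny neurons none of the 12369 genes tested was called (0%), with a smallest adjusted p of 0.283. At an unadjusted p under 0.05 there were 1485 genes, and DESeq2 called 48. The class was the deepest, with 968 to 2569 cells per pool. Npas4 was at 12.6, 9.43, 13.2 and 14.3 CPM in younger and 52.3, 26.8, 26.2 and 44.7 in older pools, without overlap (log2 difference 1.6, SE 0.25, adjusted p = 0.283), where 6.1% of all genes did not overlap. Of the neuropeptide and receptor genes that define these neurons, those picked differed little: Penk by −0.05, Tac1 by 0.27, Pdyn by 0.01 and Drd2 by 0.01, with adjusted p from 0.603 to 0.995. The D1 receptor gene was split in the replicate 1 pools, with 2445 UMIs under the symbol Drd1a and 1774 under Drd1, and its difference is not given. Leaving out mock pool 2 gave 1 called gene and leaving out morphine pool 3 gave 18. Both D1 clusters together made up 43.1, 27.3, 21.4 and 61.3% of the class in younger and 58.7, 51.7, 10.1 and 39.0% in older pools, so that the age groups overlapped. This spread depended on the clustering: when cells were clustered without the genes called, D1 cells made up 52.8 to 65.9% of the named medium spiny neurons in all 8 pools, with 13 to 25.9% of cells unnamed.

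Promoter sequence was read for the endothelial genes that rose, since CREB and serum response factor sites are the known routes by which immediate early genes are switched on. Of the 110 genes, 88 had an entry among the RefSeq promoters (GRCm38.p6; the 250 bases before the start were searched on both strands). The palindromic cAMP response element, TGACGTCA, was in 7 of these (7.95%), among them the immediate early genes Btg2 and Dusp1, and in 1.77% of all 27025 genes with a promoter entry. The CArG box, the site of serum response factor, was in 3 (3.41%: Ing2, Myl9 and Zfp36) and in 1.62% of all genes with an entry. The shares over all genes were not limited to genes tested in endothelial cells, so the 2 sets are unlike. Of the 10 immediate early genes that rose, 8 had an entry, 2 of these held the cAMP response element and 0 held a CArG box. Egr1 and Ier2 had no entry and could not be searched, and sites more than 250 bases before the start were not read. A match is a description of the letters and not evidence of binding. Windows of 30 bases are shown for both immediate early genes with the cAMP response element and for Zfp36, one of the genes most changed, with the element in capitals. The Btg2 window lies at chr1:134079303-134079332 on the minus strand, the Dusp1 window at chr17:26508597-26508626 on the minus strand and the Zfp36 window at chr7:28379267-28379296 on the minus strand; their elements start 166, 143 and 58 bases before the start site.
Btg2: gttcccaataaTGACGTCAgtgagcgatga
Dusp1: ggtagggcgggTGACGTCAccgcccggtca
Zfp36: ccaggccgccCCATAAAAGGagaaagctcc

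The genes that fell in endothelial cells were mostly genes of other cells. Of 150 that fell (2.24% of genes tested), 122 were at least 4-fold higher in another class, against 18.9% of the genes tested. Ptgds, prostaglandin D synthase of the meninges and oligodendrocytes, was at 505, 398, 530 and 1025 CPM in younger and 147, 76.9, 208 and 126 in older pools (log2 difference −2.15, SE 0.25, adjusted p = 0.00018), with its level in choroid plexus and meninges 49.9 times higher. Ermn, a cytoskeletal protein of myelinating cells, fell by 1.77 and was 31.5 times higher in oligodendrocytes. Cryab, a small heat shock protein of oligodendrocytes, fell by 1.89 and was 26.1 times higher there. All 3 genes were without overlap, and all stayed past the threshold under the 12 alternatives run.

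By list, 13 of 19 myelin and mature oligodendrocyte genes fell in endothelial cells (median log2 difference −1.31), as did 9 of 15 medium spiny neuron signalling genes (median −0.95), including Ppp1r1b, which encodes the dopamine signalling protein DARPP-32. Without both replicate 1 pools these counts were 3 and 1, and with any 1 pool left out they were 4 to 12 and 3 to 12. The summed level of the 12 oligodendrocyte markers in endothelial cells moved with these falls, at 6185 to 13376 CPM in younger and 2473 to 4745 in older pools. The 15 medium spiny neuron markers measured summed to 2213 to 3069 against 840 to 1954. Genes that fell are among these markers, such as Ermn and Ppp1r1b, so the sums are not separate from the falls. The part of the markers in the falls was not tested. Scrublet, the doublet caller used, marked few or no cells in younger pools mock 1, morphine 1 and morphine 2 and older pool mock 3. The part of doublets left in the classes was not tested either.

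**Figure D3:**
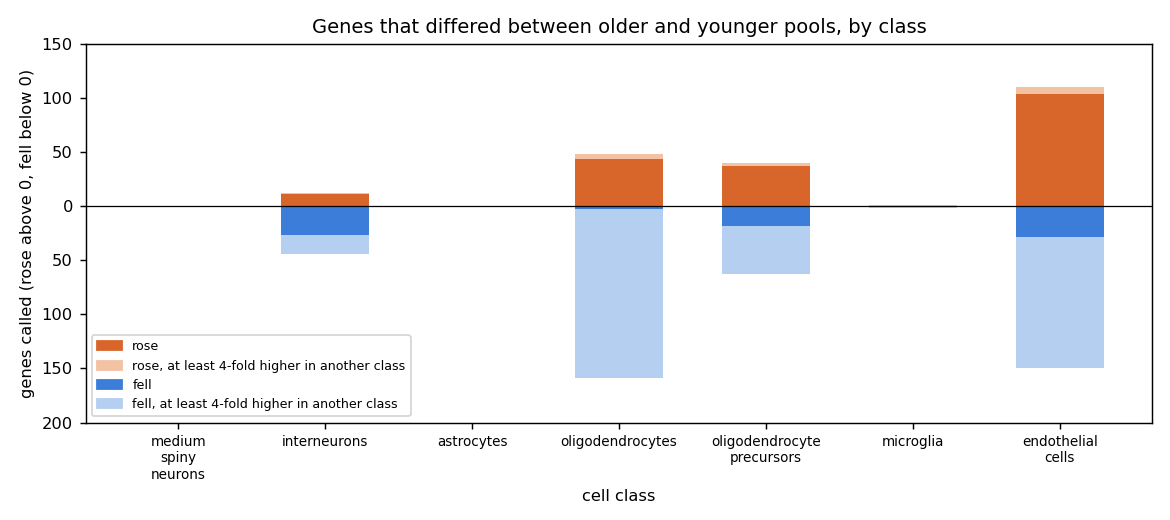
Number of genes called in each class, rises above and falls below 0, with the paler part of each bar for genes at least 4-fold higher in another class. Of the falls, 156 of 159 in oligodendrocytes, 122 of 150 in endothelial cells and 45 of 63 in oligodendrocyte precursors are such genes; medium spiny neurons and astrocytes have no called gene.

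Oligodendrocytes, which make myelin, had 48 genes that rose and 159 that fell (1.75%), and 156 of those that fell were at least 4-fold higher in another class, against 26.6% of the genes tested. C1qtnf4, a secreted protein gene at 7.2 times its oligodendrocyte level in medium spiny neurons, was at 96.1, 61.3, 98.4 and 95.6 CPM in younger and 29.9, 26.6, 35.7 and 28.1 in older pools (log2 difference −1.53, SE 0.19, adjusted p = 0.0162). Mock pool 2 was the lowest of the younger pools and still above all older ones. Atp1b2, a sodium pump subunit of astrocytes, fell by 1.73, and Fbxl16 by 1.25. Of 16 medium spiny neuron signalling genes 8 fell, and of 15 glutamate and GABA receptor genes 5 fell. The summed medium spiny neuron markers in oligodendrocytes were 1185 to 2896 CPM in younger and 521 to 916 in older pools. Some of these markers, such as Ppp1r1b and Penk, are also on the signalling list, so the sum and the list are not separate.

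Among the genes that rose in oligodendrocytes, Slk, a kinase gene acting on the cytoskeleton, was at 234, 279, 277 and 262 CPM in younger and 474, 464, 399 and 477 in older pools (log2 difference 0.78, SE 0.14, adjusted p = 0.03). The groups did not overlap, and morphine pool 3 was the lowest older pool. Prpf38b, a splicing factor gene, rose by 0.84 and Gm20417 by 1.23. Mbp, myelin basic protein, a product of the class itself, did not pass the test: it differed by 0.62 without overlap (10.1% of genes; adjusted p = 0.081). The 207 calls in oligodendrocytes did not hold up against the choice of pools: none was left without both replicate 1 pools, without morphine pool 1 or without morphine pool 4, 2 to 12 were left without mock pool 1, mock pool 3, morphine pool 2 or morphine pool 3, and 845 and 386 genes were called without mock pools 2 and 4. Without both replicate 1 pools no gene of the 2 lists above was called. No gene of the class, Slk, Prpf38b and Gm20417 included, was called once genes at least 4-fold higher in another class were left out. A limma voom fit with the replicate number as a block called none either.

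In oligodendrocyte precursors 40 genes rose and 63 fell (1.02%), 45 of the latter at least 4-fold higher in another class, against 11.4% of the genes tested. Pde1b, a calmodulin-regulated phosphodiesterase of medium spiny neurons, was at 164, 111, 156 and 143 CPM in younger and 44.3, 31.4, 55.2 and 23.1 in older pools (log2 difference −1.97, SE 0.31, adjusted p = 0.00234). The groups lay well apart, and the call was lost without morphine pool 4 alone (adjusted p = 0.054). Ppp1r1b fell by 1.57 and Pcp4, a calmodulin-binding protein gene, by 1.32, and 9 of 13 medium spiny neuron signalling genes fell. The 15 medium spiny neuron markers summed to 1570 to 4181 CPM in younger and 748 to 1518 in older precursors. Ppp1r1b is among these markers, so the sum is not separate from its fall.

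All 9 oligodendrocyte precursor genes tested were higher in the older pools, with a median log2 difference of 0.25 against −0.006 over all genes, and 1 of them rose. This was Vcan, a matrix proteoglycan, at 0.73. The list is the same as the markers that named the class, so it is not separate from how these cells were picked. Whether the lower sum of medium spiny neuron markers in older precursors plays a part was not tested. Outside that list, Sox6, a transcription factor that holds precursors undifferentiated, rose by 0.86, while Pdgfra, the growth factor receptor that marks them, differed by 0.14 (adjusted p = 0.771). The largest of the rises by p were BC005561, from 74.1, 92.7, 113 and 98.9 to 177, 174, 180 and 285 CPM (log2 difference 1.14, adjusted p = 0.0114), and Gm20417 (1.35, adjusted p = 0.0114). Of the 103 calls in this class, 5 were left without both replicate 1 pools, 1 without mock pool 1, 48 without morphine pool 1, 35 without morphine pool 2 and 0 without morphine pool 4, and 227 genes were called without mock pool 2. The 9 signalling genes that fell were 2 without both replicate 1 pools, 1 without mock pool 1 and 0 without morphine pool 4. With the replicate number as a block in a limma voom fit, 64 genes were called in the class.

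In microglia the 2 genes that fell (0.0405%) were both astrocyte genes. Ppap2b, a lipid phosphatase gene, was at 267, 159, 531 and 274 CPM in younger and 40.4, 44.5, 57.5 and 81.2 in older pools (log2 difference −2.37, adjusted p = 0.0326), and was 26.9 times higher in astrocytes. Htra1, a secreted protease gene, fell by 3.39 and was 24.8 times higher in astrocytes. The 12 astrocyte markers summed in microglia to 1115 to 3837 CPM in younger and 680 to 843 in older pools, and their part in these falls was not tested. Ppap2b is itself among these markers, so the sum is not separate from its fall. The 3 calls in microglia were 0 without mock pool 1, mock pool 3, morphine pool 1, morphine pool 4 or both replicate 1 pools, and 13 to 16 without mock pool 2, mock pool 4 or morphine pool 3. None was left in a limma voom fit with the replicate number as a block. Cx3cr1, the fractalkine receptor, and P2ry12, a purine receptor, which mark the class, differed by 0.64 and 0.31 (adjusted p = 0.624 and 0.815).

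**Figure D4:**
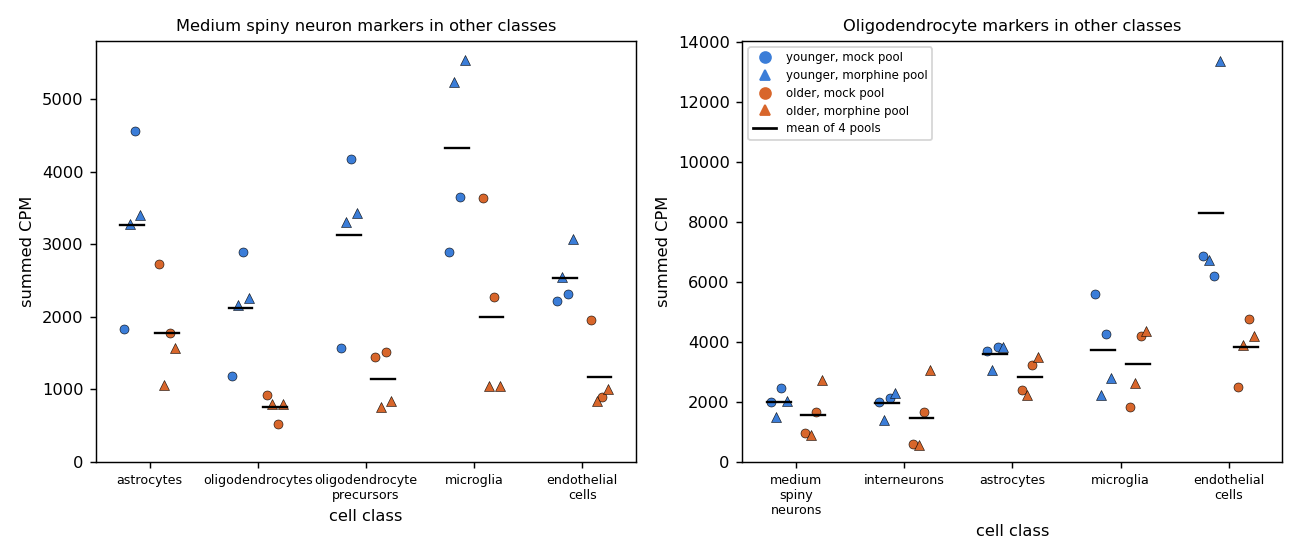
Summed CPM of the medium spiny neuron markers (left) and oligodendrocyte markers (right) in classes that they do not define, 1 point per pool with the mean of each age group as a bar. In oligodendrocytes the neuron markers are at 1185 to 2896 in younger and 521 to 916 in older pools, and in endothelial cells the oligodendrocyte markers are at 6185 to 13376 and 2473 to 4745.

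None of the 9382 genes tested in astrocytes was called (0%; smallest adjusted p 0.101), while 1217 had an unadjusted p under 0.05 and DESeq2 called 34. Without mock pool 2, 496 genes were called, and without morphine pool 3, 1. Malat1, a long noncoding RNA kept in the nucleus, was at 8016, 9059, 14965 and 13612 CPM in younger and 16135, 17241, 25608 and 28092 in older astrocytes, without overlap (6.75% of genes; log2 difference 0.94, adjusted p = 0.101). It was higher in older pools in all 7 classes, by 0.52 to 0.94 on the log2 scale, and passed the test in oligodendrocytes (0.91, adjusted p = 0.0391) and in oligodendrocyte precursors (0.92, adjusted p = 0.0174). The glutamate transporter Slc1a2 differed by 0.45 without overlap (adjusted p = 0.288), and the gap junction gene Gja1 by 0.28 (adjusted p = 0.533).

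In interneurons, of the 10112 genes tested, 0.554% were called: 12 rose (0.119%) and 44 fell (0.435%). The pools did not overlap for 8.97% of genes. Pvalb, the calcium buffer parvalbumin of fast-spiking interneurons, was at 36.5, 40.9, 27.1 and 43.2 CPM in younger and 160, 194, 373 and 154 in older pools (log2 difference 2.51, SE 0.27, adjusted p = 0.00251). All older pools were far above the younger ones, and the call held with any 1 pool left out but not without both replicate 1 pools (adjusted p = 0.114). Npy, the neuropeptide of a second interneuron type, was at 1417, 3158, 2094 and 3094 CPM in younger and 4889, 5091, 10943 and 9476 in older pools (log2 difference 1.55, SE 0.25, adjusted p = 0.0344). The age groups did not overlap, but this call, like those of Trpc6, Nf2 and Vat1l, was lost without mock pool 1, mock pool 4, morphine pool 1 or morphine pool 4 and without both replicate 1 pools.

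The make-up of the interneuron class also varied between pools. The cluster led by Npy and Sst made up 2.99 to 8.51% of the class in younger and 9.3 to 19.5% in older pools, without overlap. The cluster led by Pthlh and Pvalb made up 5.41 to 18.6% and 8.31 to 39.1%, so its share overlapped between the age groups. The cluster led by Resp18 made up 74.7 to 91.4% and 41.4 to 82.4%. Within the Npy cluster alone, Npy was at 31637 to 50971 CPM in younger and 41744 to 52160 in older pools, which overlapped. Pvalb within its own cluster overlapped as well, at 188 to 592 and 387 to 842. In the Resp18 cluster, which holds most of the class, Npy was at 103, 328, 256 and 557 CPM in younger and 485, 2282, 733 and 2464 in older pools. Pvalb was there at 3.94, 6.95, 0 and 29.8 CPM in younger and 155, 146, 0 and 108 in older pools. Both genes overlapped in that cluster too, with higher values in most older pools. These values within clusters carry no test.

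Among the genes that fell in interneurons, Nf2, the merlin tumour suppressor gene, was at 95.5, 102, 130 and 71.8 CPM in younger and 33.6, 33.1, 40.1 and 29.8 in older pools (log2 difference −1.56, SE 0.21, adjusted p = 0.0182). Vat1l fell by 1.01 and Hba-a1, a haemoglobin gene of red blood cells that shares reads with its near-identical copy, by 2.39. Nts, the neuropeptide neurotensin, fell by 2.26, from 336 to 1183 down to 58.2 to 279 CPM, and within the Resp18 cluster its levels were 389 to 1279 and 130 to 332. Arc, an immediate early gene of dendrites, fell by 2.00 (adjusted p = 0.0344), the single immediate early gene called of 13 tested in this class. Of the 56 calls none was left without both replicate 1 pools, 1 without mock pool 1, mock pool 4 or morphine pool 1, 2 without morphine pool 4, and 175, 159, 244 and 100 genes were called without mock pool 2, mock pool 3, morphine pool 2 and morphine pool 3. A limma voom fit with the replicate number as a block called 1 gene. Morphine pool 3 held 87 interneurons, the fewest of any pool.

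Summed over all cells of a pool, no gene of 15149 was called (0%; smallest adjusted p 0.459), 1627 had an unadjusted p under 0.05, and DESeq2 called 33. Without morphine pool 3, 36 genes were called. In such sums, fewer cells of a type and less RNA per cell cannot be told apart. All 15 immediate early genes were higher in the older pools, with a median log2 difference of 0.59 against 0.008 over all genes. Fosb was at 19, 21.4, 27.6 and 17.1 CPM in younger and 52.7, 35.4, 62.0 and 49.3 in older pools (log2 difference 1.22, adjusted p = 0.459), and Npas4 at 11.6, 7.3, 8.95 and 12.1 and 30.7, 20.9, 16.6 and 33.2 (1.35, adjusted p = 0.459). These were the 2 members without overlap, where 5.58% of all genes had none.

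All 16 astrocyte maturation genes were lower in the older pools, with a median of −0.54 and none called. Gjb6, a gap junction protein of astrocytes, was at 82.1, 77.9, 79.8 and 80.0 CPM in younger and 38.8, 39.9, 73.3 and 42 in older pools (log2 difference −0.75, adjusted p = 0.459). Morphine pool 3 stood near the younger pools and the other 3 older pools far below them. Mfge8, a phagocytosis bridge protein, differed by −0.56, also without overlap. Within astrocytes the differences were 0.12 for Gjb6 (adjusted p = 0.814) and 0.22 for Mfge8 (adjusted p = 0.703), and the share of astrocytes among cells was 14.4 ± 2.66% in younger and 10.3 ± 1.36% in older pools (SD, n = 4; exact permutation p = 0.0571).

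Lists of brain maturation showed small medians and no called gene. The median was −0.15 for 22 myelin genes, of which 18 were lower, −0.29 for 9 oligodendrocyte precursor genes, of which 8 were lower, and 0.10 for 17 immature neuron genes. Dbn1, drebrin of dendritic spines, was at 76.3 to 117 CPM in younger and 54.4 to 71.8 in older pools (log2 difference −0.56, adjusted p = 0.459). Of 17 cholesterol synthesis genes 13 were higher, with a median of 0.057. Lss, which closes the sterol ring to form lanosterol, was at 17.1 to 23.8 CPM in younger and 24.0 to 32.5 in older pools (log2 difference 0.38, adjusted p = 0.459).

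For 3 genes of these lists the difference lay in the replicate 1 pools alone. Grin2a, an NMDA receptor subunit, was at 45.2 and 62.8 CPM in mock pool 1 and morphine pool 1 and at 2.07 to 4.64 in the other 6 pools. Sox11, a transcription factor of newborn neurons, was at 47.4 and 38.1 there and at 6.85 to 9.08 elsewhere. Tnr, a matrix glycoprotein of perineuronal nets, was at 68.0 and 58.2 there and at 14.4 to 19.3 elsewhere. These are the pools counted on the other annotation, and for Grin2a the log2 difference of −3.19 turned to 0.27 without them.

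No class share differed between the age groups after adjustment over 16 classes; 4 pools against 4 can give no exact p below 0.0286. Red blood cells reached that value, with 0.74 ± 0.688% of cells in younger and 0.169 ± 0.0469% in older pools (SD, n = 4; exact permutation p = 0.0286, adjusted p = 0.457), and mock pool 1 stood highest at 1.77%. Clustered without the genes called, red blood cells overlapped (0.388 ± 0.459% against 0.0853 ± 0.0664%; exact permutation p = 0.114) and astrocytes were apart (14.3 ± 2.61% against 10.2 ± 1.36%; exact permutation p = 0.0286, adjusted p = 0.374). Interneurons made up 8.64 ± 2.82% of cells in younger and 5.33 ± 3.46% in older pools, but 1.62 ± 0.558% and 2.56 ± 0.766% with that clustering, in which the cluster led by Calb2 and Pnoc had no name. Excitatory neurons, which belong to cortex rather than accumbens, made up 1.89 ± 1.03% of cells in younger pools and 6.56 ± 4.37% in older ones (exact permutation p = 0.143), with 0.328% in morphine pool 3 and 6.76 to 9.75% in the other older pools. Microglia made up 2.73 ± 1.27% and 4.33 ± 1.07% (exact permutation p = 0.114). Medium spiny neurons, the largest class, made up 37.4 ± 2.29% and 40.8 ± 5.74% (exact permutation p = 0.314). Scrublet marked 0% of cells in the younger pools mock 1, morphine 1 and morphine 2 and 0.174% in the older pool mock 3. Few or no doublets were thus removed from these pools, and whether doublets were missed there was not tested. In the other pools it marked 2.38 to 6.77%, the highest in the younger pool mock 2.

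**Figure D5:**
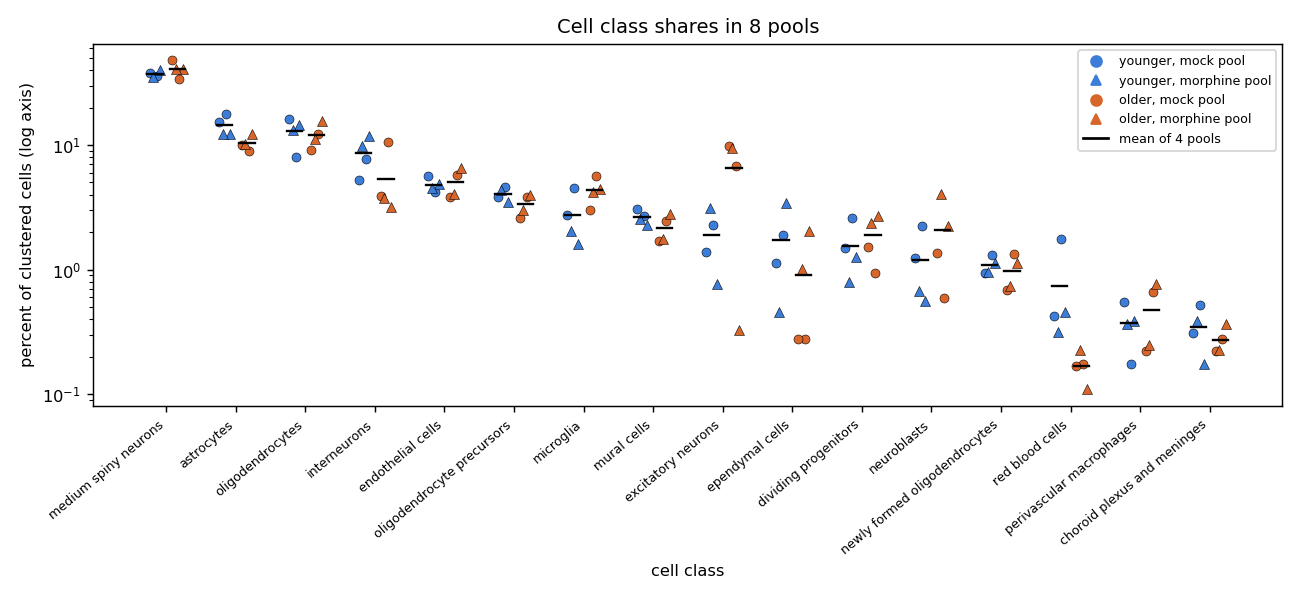
Share of clustered cells (percent, log axis) in each of 16 classes, 1 point per pool with the mean of each age group as a bar. In this clustering red blood cells are the 1 class whose age groups do not overlap, and excitatory neurons spread from 0.328 to 9.75% over the older pools.

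Whether the age difference depended on treatment was tested by the interaction of age and treatment over all cells. No gene of 15149 passed (0%; smallest adjusted p 0.883) with edgeR's quasi-likelihood test, 644 had an unadjusted p under 0.05, and DESeq2 called 12. Fitted apart over all cells, mock pools gave 134 called genes and morphine pools 0, which is no test of a difference between them. In endothelial cells the higher level of Fosb, Egr1, Junb, Jun, Klf4 and Cyr61 in older pools was seen in mock and in morphine pools alike, since no pool of the 2 age groups overlapped.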

How the data were processed

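The deposited files hold whole-number UMI counts per gene and barcode for each pool. Per the submitters' processing notes, STAR 2.4.2a, Trimmomatic 0.36, HTSeq, DESeq and DESeq2 were named for the series with build mm10; which applied to the pools is not given in the sources used here. Per the file headers, replicate 1 pools carry other gene symbols, so the 17013 symbols shared by all files of 31383 were used; 304 of them had a second synonym row in replicate 1.

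A barcode was kept (33225) with 300 or more genes and no more than 20% of its UMIs from mitochondrial genes. Scrublet (expected rate 0.05) marked 880 doublets, which were left out of clustering and so of the class sums, but not of the sums over all cells. Clusters came from scanpy 1.11.5 (2000 variable genes, 30 components, 15 neighbours, Leiden resolution 1) and were named from at least 3 markers among the top 50 genes. UMIs were summed per pool, or per pool and class with at least 20 cells, and fitted with edgeR 4.0.16 (TMM, filterByExpr, quasi-likelihood test, Benjamini-Hochberg over all genes tested). CPM values (UMIs scaled to library size) of genes used the TMM factors, and CPM sums of markers did not. Each SE was worked back from the test, as the size of the log2 difference over the square root of the quasi-likelihood F value. Shares were compared by two-sided exact permutation tests.

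Members and gene lists were chosen with earlier results of these data known. Named genes are, in each list, up to 4 members of smallest p over all cells and, in each class, 3 called genes of smallest p in each direction; all other genes named were chosen after their values were seen. Alternatives were DESeq2 1.42.0, no filter, a replicate block, renamed symbols, stricter cells, each pool left out, both replicate 1 pools left out, and 1 treatment alone; leaving out genes at least 4-fold higher in another class and the class by age term were added after seeing the data.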

Additional observations from a re-analysis of the deposited data

Results flagged for a closer look

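Of 268 groups of 4 pools examined, 16 held a pool far from the other 3 by Dixon's 95% criterion on the gap over the range, where chance marks about 1 in 20 groups. Among older pools, interneurons made up 10.488% of cells in mock pool 3, against 3.17 to 3.89% in the others. Clustered without the genes called, the values were 3.69% and 2.05 to 2.35%. Among younger pools, red blood cells made up 1.7678% of cells in mock pool 1, against 0.316 to 0.456%.

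Morphine pool 3 stood apart for several genes. In CPM over all cells, it had 2366.6 for Apoe, against 1300 to 1447 in the other older pools, 73.27 for Gjb6, against 38.8 to 42, and 690.94 for Glul, against 446 to 474. It also had 319.89 for Pde1b, against 171 to 195, and was low for Cyp51, at 63.88 against 74.9 to 76.9, and in oligodendrocytes for Slk, at 398.74 against 464 to 477. Mock pool 3 stood apart over all cells for Marcks, at 644.67, against 564 to 571, Grb10 at 36.385, against 23.9 to 24.3, Arpp21 at 2029, against 3632 to 3894, and Npas2 at 17.275, against 28.0 to 29.9. Sox4 was low in morphine pool 1 at 42.142, against 62.9 to 66.1 in the other younger pools.

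Within classes, C1qtnf4 in oligodendrocytes was at 61.275 in mock pool 2, against 95.6 to 98.4 in the other younger pools. In oligodendrocyte precursors morphine pool 4 was the highest older pool, with 284.77 for BC005561, against 174 to 180, and 250.14 for Fosb, against 89.8 to 114. Without morphine pool 4 neither gene passed the threshold.

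The age difference itself differed between endothelial cells and medium spiny neurons for Cyr61, by 1.8258 on the log2 scale (adjusted p = 0.0272), and for Egr1, by 1.7739 (adjusted p = 0.00224), by edgeR's quasi-likelihood test of the class by age term over 8 pools.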

How the results depend on the processing

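Counts of called genes depended on the test. DESeq2 gave 33 for all cells, 48 for medium spiny neurons, 202 for interneurons, 34 for astrocytes, 340 for oligodendrocytes, 50 for oligodendrocyte precursors, 30 for microglia and 12 for the age by treatment interaction. With no filter on low counts, 587 genes were called in interneurons, 276 in astrocytes, 848 in oligodendrocytes, 185 in oligodendrocyte precursors, 95 in microglia and 559 in endothelial cells. Without both replicate 1 pools the counts were 0 in interneurons, oligodendrocytes and microglia, 5 in oligodendrocyte precursors and 40 in endothelial cells. Without genes at least 4-fold higher in another class they were 12 in astrocytes, 0 in oligodendrocytes and microglia and 131 in endothelial cells. Mock pools alone gave 134 genes over all cells and morphine pools alone 0. With any 1 pool left out, the counts ranged from 0 to 36 over all cells, 0 to 18 in medium spiny neurons, 1 to 244 in interneurons, 0 to 496 in astrocytes, 0 to 845 in oligodendrocytes, 0 to 227 in oligodendrocyte precursors, 0 to 16 in microglia and 64 to 576 in endothelial cells. The causes were not tested.

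Deviations of pools with the same number correlated at 0.428, −0.076, −0.043 and 0.69, and the main fits did not pair the pools by number. These values do not show that the pools are independent. Pools with the same number held mice of the same ages. They also had the same count of deposited barcodes, 3000 for numbers 1 and 3 and 6000 for numbers 2 and 4. Mock pools 1 and 4 correlated best with the morphine pool of their own number, and mock pools 2 and 3 with that of another. The consensus correlation within numbers was 0.349 over all cells, 0.322 in interneurons and 0.213 in oligodendrocytes. With the replicate block, 1 gene was called in interneurons, 0 in oligodendrocytes and microglia and 64 in oligodendrocyte precursors, and 220 in endothelial cells.

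Of the genes named over all cells, 13 turned direction under an alternative. Without both replicate 1 pools, Igf2 was at 0.40, Grin2a at 0.27 and Rpl32 at 0.0064 (log2). In mock pools alone, Sox4 was at −0.0453, Top2a at −0.29, Pcna at −0.0277, Psmb8 at −0.0491, Ctss at −0.0806 and Trem2 at −0.0671. In morphine pools alone, Tubb2b was at 0.11, Dcn at 0.25 and Fabp7 at 0.07. Cenpf was at −0.27 with 5 classes left out. The smallest class tested, microglia, held 81315 to 397230 UMIs per pool.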

Other observations

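Of 15 complement and microglial genes 13 were higher in the older pools (median log2 difference 0.375, none called). Cx3cr1, the fractalkine receptor of microglia, was at 58.1, 55.6, 14.2 and 24.9 CPM in younger and 90.4, 43.7, 56.3 and 41.2 in older pools (0.75, adjusted p = 0.461), and both younger morphine pools were the lowest. Microglia made up 1.61 and 2.05% of cells in those morphine pools and 2.75 to 4.51% in the younger mock pools.

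Of 23 cell division genes 18 were higher in the older pools (median 0.235, none called), but the direction was not the same in all pools: dividing progenitors differed by −0.819 percentage points of cells in mock and by 1.51 in morphine pools, Top2a was at −0.29 (log2) in mock pools alone, and Cenpf at −0.27 with 5 classes left out. Cenpf, a kinetochore protein gene, was at 16.2, 16.0, 11.9 and 15.3 CPM in younger and 11.7, 25.2, 56.2 and 34.1 in older pools (0.96, adjusted p = 0.459). Morphine pool 3 was the highest and mock pool 3 the lowest of all pools, and dividing progenitors made up 2.69% and 0.941% of their cells. Ttr, the transthyretin gene of the choroid plexus, differed by pool rather than by age, at 119, 4.07, 13354 and 6.55 CPM in younger and 53.6, 0.0862, 938 and 0.0998 in older pools.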
